A study of Talpa occidentalis and Mus musculus with 35 samples.

Results

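Keratins are the intermediate filament proteins of epithelial cells, and keratin-associated proteins (KRTAP) form the matrix in which hair keratin filaments are embedded. In the annotation of the Iberian mole genome assembly talOcc3, gene lines were taken whose symbol, after removal of a trailing copy number or low-confidence mark, began with KRT or KRTAP and a digit. This gave 97 loci of 23336 gene lines, or 0.416% of them. Of these, 60 were keratin loci under 48 symbols and 37 were keratin-associated protein loci under 20 symbols. The loci lay on 13 of 2074 scaffolds, and 0 of the 97 carried the low-confidence mark.

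The study sequenced polyadenylated RNA from gonads to compare female moles, whose gonad is an ovotestis, with male moles and with mice. Of the 35 libraries in 16 groups, 19 came from wild-type moles. At embryonic day 15 the groups were ovotestis and testis, of 2 libraries each. At postnatal day 7 (3 libraries per group) and in adults (2 per group) they were the ovotestis, separated into its ovarian and its testicular part, and the testis. The 16 mouse libraries (2 per group) came from ovaries of an Fgf9 mutant at embryonic day 13.5, from ovaries of wild-type B6 embryos of that age, and from ovary and testis of the wild-type CD1 strain at embryonic day 13.5, postnatal day 7 and 10 weeks; the sources used here do not state the allele of the mutant. Only the mole gene annotation was analysed, which has no value per library, so the expression of keratins in these gonads was not analysed here and the depth of the libraries is unknown. All values below describe gene models, which are not replicates, and no test was run on them.

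Keratin filaments are built from heterodimers of a type I (acidic) and a type II (basic) keratin, so each epithelium expresses matched members of both types. KRT8 and KRT18 are the pair of simple epithelia and are known from the surface epithelium of the ovary and from fetal Sertoli cells. KRT5 and KRT14 mark the basal layer of the epidermis, KRT1 and KRT10 its suprabasal layers, and the hair keratins (KRT31 to KRT40 and KRT81 to KRT86) the cortex and cuticle of the hair shaft. In mammals the type I genes other than KRT18 lie in one cluster and the type II genes, with KRT18 at their edge, in another.

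To show how alike the 2 types are at the level of sequence, the coding part of 126 bases that most members of both types share in length is printed for the partners KRT14, KRT10 and KRT18 (type I) and KRT5, KRT1 and KRT8 (type II). No mole sequence was used here, so these are the mouse genes, from the GENCODE M21 transcripts on GRCm38, each read 5′ to 3′ along its transcript, with capitals at the bases that are identical in all 6.
Krt14: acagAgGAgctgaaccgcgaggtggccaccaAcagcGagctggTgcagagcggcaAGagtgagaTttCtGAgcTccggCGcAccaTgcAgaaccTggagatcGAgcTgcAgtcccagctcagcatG
Krt10: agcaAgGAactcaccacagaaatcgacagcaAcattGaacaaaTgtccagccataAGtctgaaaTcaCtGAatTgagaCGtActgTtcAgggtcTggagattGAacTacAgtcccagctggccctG
Krt18: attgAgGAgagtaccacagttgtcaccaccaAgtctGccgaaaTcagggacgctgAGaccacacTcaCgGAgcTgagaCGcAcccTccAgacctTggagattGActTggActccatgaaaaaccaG
Krt5: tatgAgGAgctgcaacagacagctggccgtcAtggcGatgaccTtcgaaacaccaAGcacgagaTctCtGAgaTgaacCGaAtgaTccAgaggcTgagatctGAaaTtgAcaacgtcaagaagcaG
Krt1: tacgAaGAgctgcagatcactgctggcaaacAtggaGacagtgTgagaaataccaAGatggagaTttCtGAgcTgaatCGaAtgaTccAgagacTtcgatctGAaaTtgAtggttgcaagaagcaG
Krt8: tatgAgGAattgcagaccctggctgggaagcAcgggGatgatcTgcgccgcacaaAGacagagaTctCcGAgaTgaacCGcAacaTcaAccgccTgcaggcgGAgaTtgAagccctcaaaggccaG
The part lies at chr11:100204424-100204549 (minus strand) in Krt14, at chr11:99386998-99387123 (minus strand) in Krt10 and at chr15:102030895-102031020 (plus strand) in Krt18. It lies at chr15:101709753-101709878 in Krt5, chr15:101847506-101847631 in Krt1 and chr15:101998391-101998516 in Krt8, all on the minus strand. In all 6 genes it is coding and internal to the transcript. Only 24 of the 126 bases, 19%, were identical in all 6. Within type II, Krt5 and Krt1 shared 73% of bases, and within type I, Krt14 and Krt10 shared 60.3%. Between the types the share ran from 38.9% (Krt10 and Krt1) to 50% (Krt14 and Krt8). The equal length in all 6 genes was set by the choice of this part. Its sequence was more alike within each type (at least 52.4%) than between the types.

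The type I keratins formed 1 cluster on scaffold 28, at 8269921 to 9074593, a span of 804.7 kb. A cluster was a run of at least 3 member loci with at most 10 other loci between neighbours. This one held 39 loci, 29 of type I keratins and 10 of keratin-associated proteins. All 29 keratin loci and 9 of the 10 KRTAP loci lay on the minus strand, with KRTAP9-9 alone on the plus strand. The median distance between neighbours was 7.361 kb, against 16.3 kb over 20412 neighbours in the whole annotation. On one side the cluster began 2.454 kb from SMARCE1, a subunit of the BAF chromatin remodelling complex, beyond which lay CCR7, a chemokine receptor, and a model with no symbol. On the other side it ended 39.39 kb from EIF1_copy3, a locus of a translation start factor, followed by GAST, the gene of gastrin, and HAP1. JUP, which encodes the desmosomal protein plakoglobin that links keratin filaments to the cell surface, lay 72.17 kb beyond the cluster.

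From the SMARCE1 side the type I loci ran in blocks of related use. First came KRT222 and KRT24, then the inner root sheath keratins KRT25, KRT27 and KRT28, and then KRT10 of the suprabasal epidermis, KRT12 of the cornea, KRT20 of the gut epithelium and KRT23. The hair keratins KRT39 and KRT40 followed. A block of KRTAP loci spanning 225.2 kb then separated them from the other hair keratins, KRT33A, KRT33B, KRT34, KRT31, 3 loci of KRT38, KRT32, KRT35 and KRT36. The last block held KRT13 of stratified mucosa, KRT15, KRT19 of simple epithelia, KRT14 of the basal epidermis, KRT16 of wounded epidermis and 3 loci of KRT17, a keratin of hair follicles and wounded epidermis. The 12 hair keratin loci therefore lay on both sides of the KRTAP block and between epithelial keratins.

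The type II keratins formed 1 cluster on scaffold 34, at 11994772 to 12544815, a span of 550 kb. It held 25 loci, 24 of type II keratins and KRT18 of type I at its end. Of these, 21 lay on the minus strand and 4 on the plus strand, namely KRT7, KRT86_copy2, KRT85 and KRT18. The median distance between neighbours was 9.971 kb. ATG101, an autophagy gene, lay 38.43 kb before it, preceded by NR4A1, a nuclear receptor gene, and GRASP. EIF4B, which encodes a translation start factor, lay 32.65 kb after it, followed by TNS2, a tensin gene, and SPRYD3. Keratins occupied every place between them except one, a single-exon ARL2BP model between KRT1 and KRT3, in the widest gap of the cluster (69.88 kb).

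From the ATG101 side the type II loci began with KRT86 and with KRT7 of simple epithelia, followed by the hair keratins KRT81, KRT86_copy2, KRT83, KRT85, KRT85_copy2, KRT84 and KRT82. Next came KRT6A_copy2 and KRT6A of wounded epidermis and KRT5 of the basal epidermis. The inner root sheath keratins KRT71, KRT74, KRT72 and KRT73 lay together in the middle. KRT2 and KRT1 of the differentiated epidermis, KRT3 of the cornea, 2 loci of KRT4 of stratified mucosa, KRT79 and KRT78 followed. KRT8 and KRT18, partners in simple epithelia, closed the cluster 26.81 kb apart on opposite strands.

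**Figure D1:**
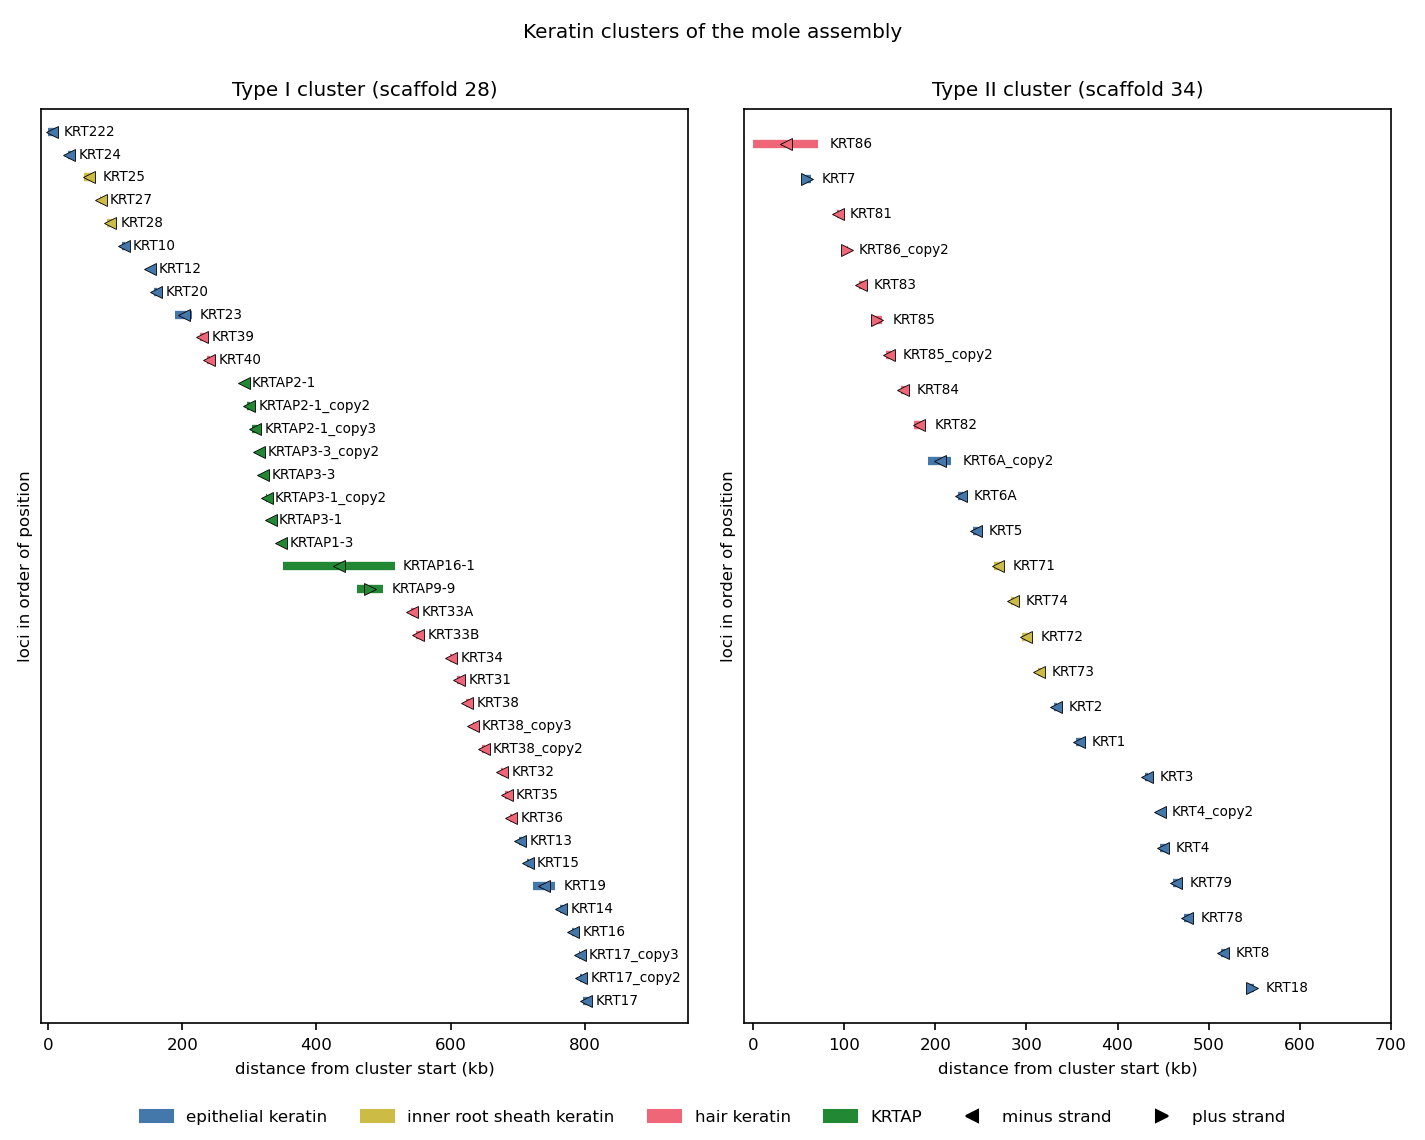
Type I cluster on scaffold 28 (left) and type II cluster on scaffold 34 (right), with loci in order down the page and their distance from the cluster start in kb across it. Each bar spans 1 locus, colours give the class and arrowheads the strand; 38 of 39 loci on the left and 21 of 25 on the right point to the minus strand.

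The order of these loci was compared with the mouse, using only symbols named once in both species. With all other loci skipped, all 35 pairs of successive mole keratins were also successive in the mouse annotation, with the same relative strand. Relative order was compared in this way, and not direct adjacency. Mouse Krt26, for one, lies between Krt25 and Krt27 and was skipped. With the best-scoring locus of every symbol used, including symbols with several loci, 38 of 40 pairs were kept. The 2 that were not kept were KRT86 with KRT7, and KRT81 with KRT83. Both turn on the place of KRT86: the mouse Krt86 lies on the plus strand between Krt81 and Krt83, where the mole annotation has KRT86_copy2 on the plus strand. With loci under 50% of the highest score of their symbol left out, 35 of 37 pairs were kept against the mouse. Against the later mole assembly MPIMG_talOcc4v2.1, used only for names and neighbours, 20 of 20 pairs were kept. Loci not named once in both were again skipped. KRT36 and KRT16 thus counted as successive, although KRT13, KRT15, KRT19 and KRT14 lie between them in talOcc3.

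Several symbols of the keratin lists had no locus under their own name. The lists held 55 symbols, and 47 had a locus. The type I keratins without one were KRT9, a keratin of palms and soles, KRT26 of the inner root sheath and KRT37 of hair. The type II keratins without one were KRT6B, KRT6C, KRT76, KRT77 and KRT80. Among the keratins named in the later assembly, KRT26 comes next to KRT25, KRT77 between KRT1 and KRT3, and KRT80 beside KRT7. That assembly names 30 member symbols in all, 26 of which also occur in talOcc3, and the fourth of its other symbols is KRTAP29-1. In turn, 42 member symbols of talOcc3 are not named there.

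The lengths of the coding parts followed a pattern in each type. For each type, the run of 4 consecutive part lengths held by most clustered loci was taken, counting parts in reading direction. In type I it was 83, 157, 162 and 126 bases, held by 19 of the 27 clustered loci with at least 4 parts. In type II it was 61, 96, 165 and 126 bases, held by 16 of 21. These counts describe the loci that chose the run. In KRT86, 1 of the 16, an intron of 64.57 kb lies between the parts of 165 and 126 bases. KRT75, the keratin of the companion layer of the hair follicle, held the type II run as well, although its locus stood alone on scaffold 945. No type I locus held the type II run, and no type II locus the type I run, both counts being 0. Among all other mole models with at least 4 parts, 0 of 13867 held the type I run (0%) and 0 of 13867 the type II run (0%).

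The same runs were present in mouse keratins. The type I run occurred in 24 of the 27 mouse genes with a type I symbol of the lists, all but Krt222, Krt23 and Krt18. The type II run occurred in 22 of 22 mouse genes with a type II symbol. Among 15357 mouse genes with at least 4 parts and no keratin name, 0 held the type I run and 2 the type II run, Gm5414 and Gm5478. Whether these 2 are keratin genes under another name was not tested. The 3 mouse type I genes without the run had mole counterparts without it, and with the same deviating lengths. Mole KRT23, like mouse Krt23, had 123 bases in place of 126 after parts of 157 and 162. Mole KRT18, like mouse Krt18, had 165 bases in place of 162, followed by 126 and 224. Mole KRT222 began with parts of 96, 129 and 221 bases, as mouse Krt222 did. In KRT24 the species differed: the mole model had parts of 165, 126 and 221 bases where the mouse gene had 162, 126 and 218.

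**Figure D2:**
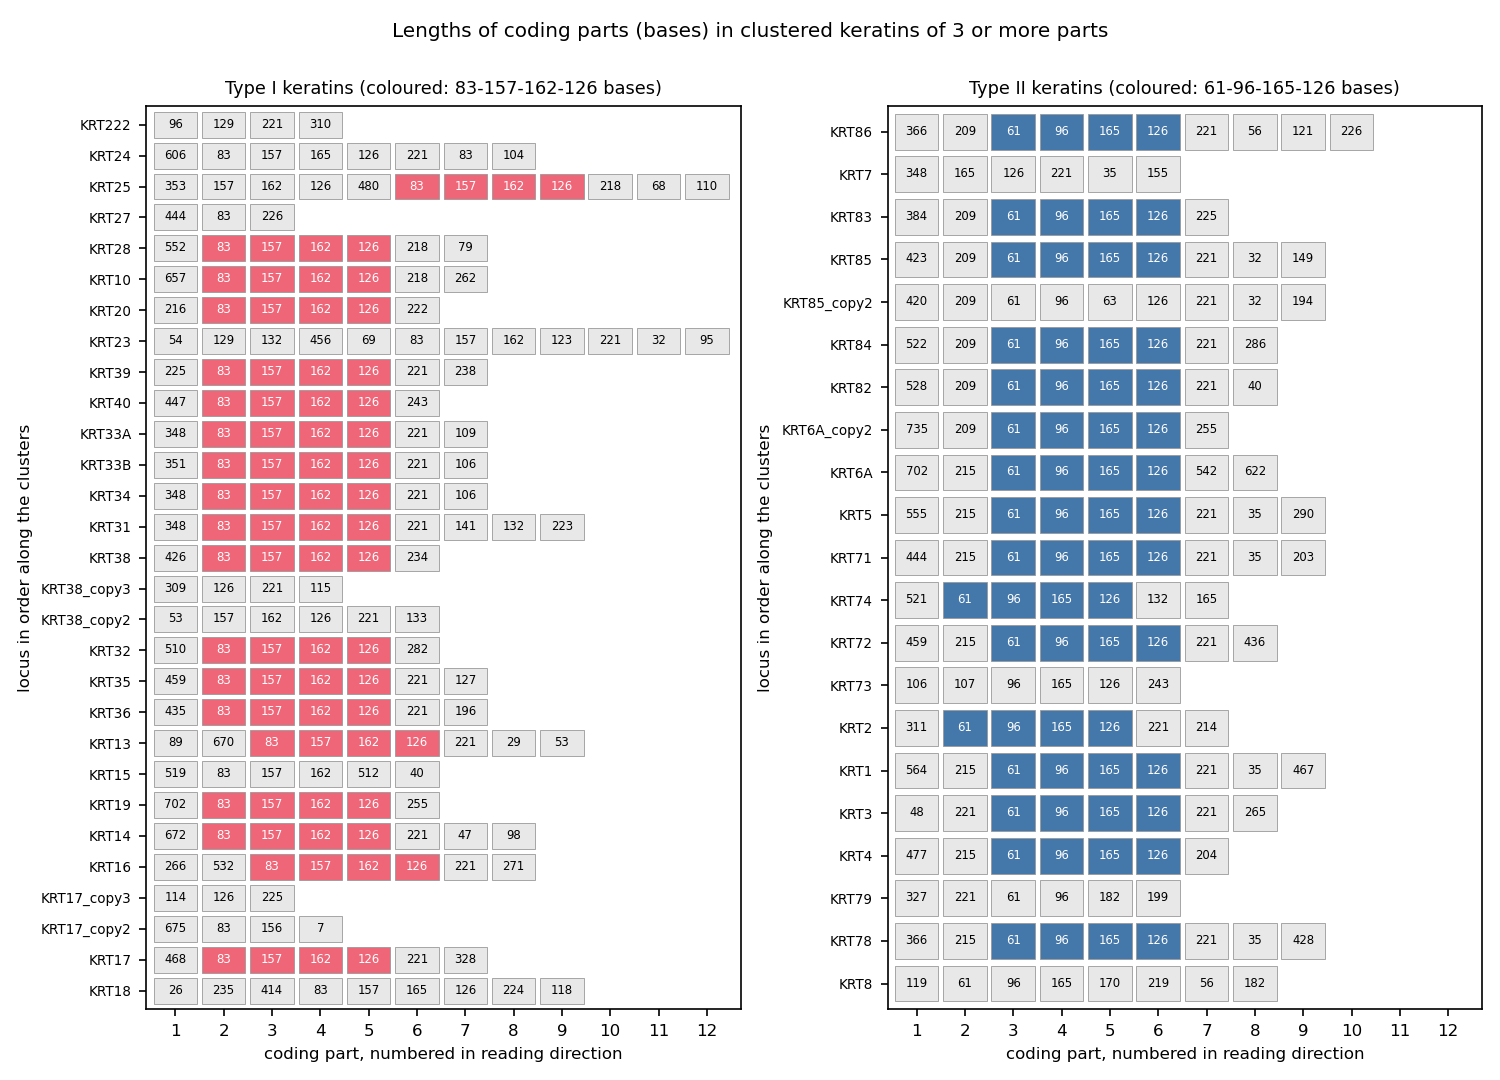
Lengths in bases of the coding parts of clustered keratins with at least 3 parts, numbered in reading direction, with type I on the left and type II on the right. Coloured boxes mark the consecutive lengths 83, 157, 162 and 126 (left, in 19 loci) and 61, 96, 165 and 126 (right, in 16 loci). In KRT86 the coloured run crosses an intron of 64.57 kb. Grey boxes are all other parts.

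The parts next to the run were compared by class. In type II, the part just before the run had 209 bases in 5 hair keratin loci (KRT86, KRT83, KRT85, KRT84 and KRT82) and in KRT6A_copy2. It had 215 bases in 6 epithelial loci (KRT6A, KRT5, KRT1, KRT4, KRT78 and KRT75) and in the inner root sheath keratins KRT71 and KRT72. KRT75, of the companion layer of the hair follicle, was counted as epithelial in both species because it was on that list. The other mole loci had 311 bases in KRT2, 221 in KRT3 and 521 in KRT74. In the mouse, the part had 209 bases in 5 hair keratins and 215 bases in 9 epithelial and 3 inner root sheath keratins. The mouse epithelial keratins Krt8 and Krt80 also had 209 bases, and Krt7, Krt79 and Krt76 had 212, 218 and 221. The part just after the type II run did not separate the classes: it had 221 bases in 6 of 9 epithelial, 4 of 5 hair and 2 of 3 inner root sheath loci of the mole, and in all 14 epithelial, 5 hair and 3 inner root sheath keratins of the mouse. In type I, the part just after the run had 221 bases in 7 of 10 mole hair keratin loci that held the run, and in 9 of 9 mouse hair keratins. Hair and epithelial keratins shared this length, with 221 bases also in 4 of 7 mole epithelial loci (KRT13, KRT14, KRT16 and KRT17) and in 7 of 11 mouse epithelial keratins. It had 218 bases in the mole inner root sheath loci KRT25 and KRT28 and in KRT10, and in the mouse in all 4 inner root sheath keratins, Krt10 and Krt24.

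Individual models departed from this plan. KRT25 had 12 parts, as KRT23 did, and held the lengths 157, 162 and 126 in 2 places: parts of 353, 157, 162, 126 and 480 bases, then 83, 157, 162, 126, 218, 68 and 110. Its largest intron, 6.298 kb, lay after part 4. The mouse has Krt26 next to Krt25, both of 8 parts, and the mole annotation has no locus of the name KRT26. Whether the model joins 2 genes was not tested.

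KRT86 spanned 71.75 kb with 10 parts and had an intron of 64.57 kb, within which KRT7 lay on the opposite strand. The 5 parts before this intron (366, 209, 61, 96 and 165 bases) lay on the side of KRT81. The 5 parts after it (126, 221, 56, 121 and 226 bases) lay on the side of ATG101, where the mouse and the later mole assembly have KRT80. In order, 7 part lengths of the model matched those of mouse Krt80, and 6 matched those of Krt86, of Krt87 and of Krt90. The 6 shared lengths thus do not single out Krt86. In the mouse, Krt87 lies on the minus strand between Krt7 and Krt81. Krt80 ends in parts of 56 and 122 bases, Krt86 in 32 and 179, and Krt87 in 32 and 191. The coding parts of the model thus lay on both sides of KRT7, and whether it joins parts of 2 genes was not tested. The second locus of the symbol, KRT86_copy2, had a single exon of 351 bases and 32.4% of the score of KRT86.

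KRT6A_copy2 lay between KRT82 and KRT6A, with 18.87 kb in its largest intron. It had 5 lengths in common with mouse Krt90, which lies beside Krt82, and 4 with mouse Krt6a, but 9 mouse genes tied at 5. KRT3 had its most shared lengths, 6, with mouse Krt76 alone, and both have 221 bases before the run. KRT85_copy2 had 63 bases where KRT85 and other type II loci had 165. KRT15 lacked the run through a part of 512 bases in place of 126, and KRT79 through parts of 182 and 199 bases after those of 61 and 96. KRT19 had an intron of 31.83 kb after its first part, against a median largest intron of 1.147 kb over 54 keratin loci of more than 1 exon.

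Mole models were set beside mouse genes of the same symbol for 43 keratins. The number of coding parts was the same in 14, lower in the mole in 23 and higher in the mole in 6. Type I models had a median of 7 parts in the mole and 8 in the mouse over 25 symbols, with 10 equal, 10 lower and 5 higher in the mole. Type II models had a median of 8 parts in the mole and 9 in the mouse over 18 symbols, with 4 equal, 13 lower and 1 higher in the mole. The median coding length was 99.5% of the mouse length for type I and 90.65% for type II. By class, the number of parts was equal in 6 of 9 type I hair keratins: KRT33A, KRT33B, KRT34, KRT35, KRT36 and KRT39 had 7 parts in mole and mouse. Of the other type I hair keratins, KRT31 had 9 parts in the mole and 7 in the mouse, and KRT32 and KRT40 each had 6 in the mole and 7 in the mouse. The number was equal in 4 of 13 epithelial and 0 of 3 inner root sheath keratins of type I. In type II it was equal in 3 of 10 epithelial, 0 of 5 hair and 1 of 3 inner root sheath keratins.

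The shortest models were far below the mouse number. KRT12, of the corneal epithelium, had 1 part of 237 bases in the mole and 8 parts in the mouse. KRT81, a hair keratin, had 2 parts in the mole and 9 in the mouse. KRT27, of the inner root sheath, had 3 in the mole and 8 in the mouse. KRT12 and KRT81 shared 0 part lengths with their mouse genes. At the other end, KRT25 and KRT23 each had 12 parts in the mole and 8 in the mouse.

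**Figure D3:**
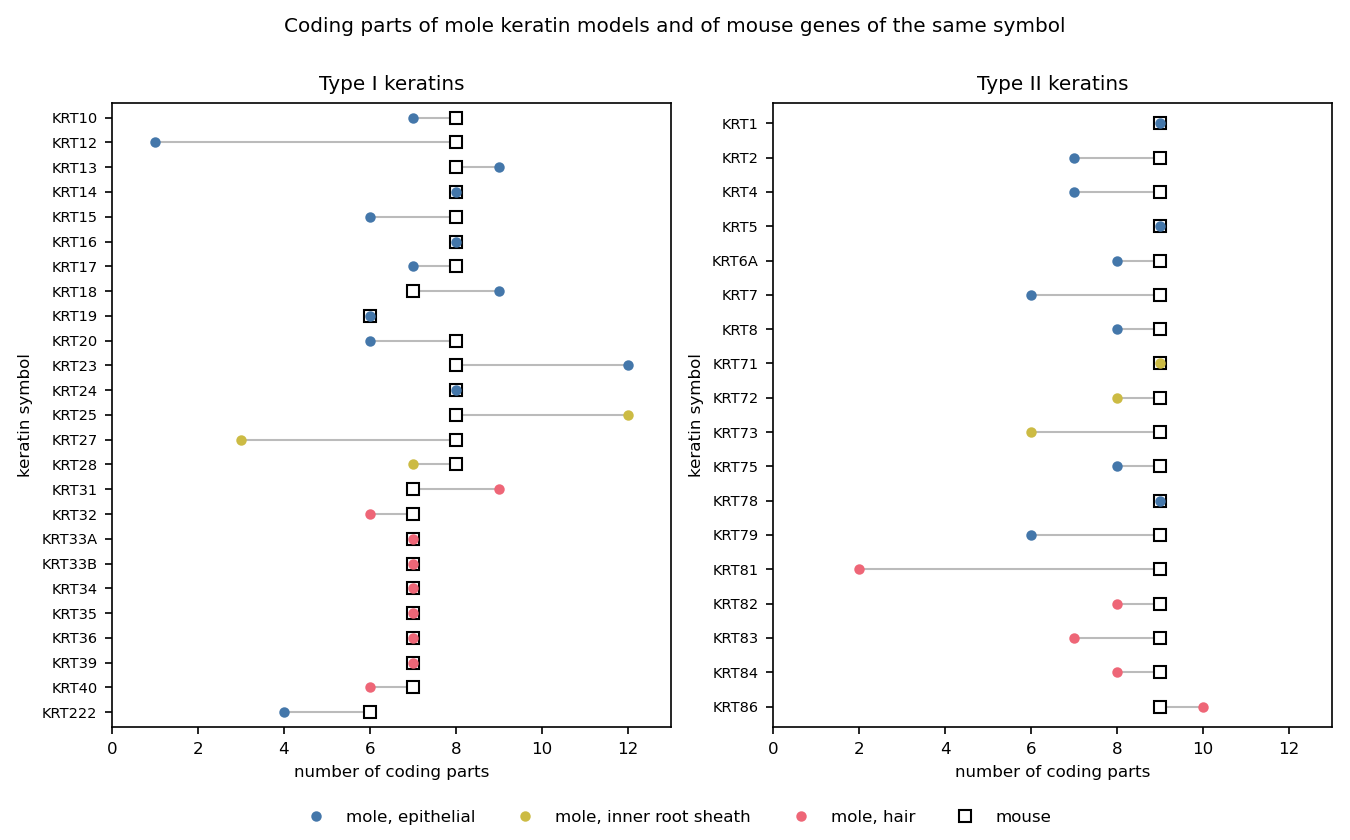
Number of coding parts of the best-scoring mole model (filled circles, coloured by class) and of the mouse gene of the same symbol (open squares) for 25 type I and 18 type II keratins. Circles inside squares mark the 14 symbols with equal numbers; most other circles lie to the left of their squares, with KRT12 at 1 and KRT81 at 2 as the lowest.

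Of the 68 member symbols, 14 had more than 1 locus, or 20.6%, against a background of 14.6% of all 16196 symbols in the annotation. The keratins among them were KRT8 with 5 loci, KRT17 and KRT38 with 3 each, and KRT4, KRT6A, KRT85 and KRT86 with 2 each. The deposited score is a number the authors gave each model, and the sources used here do not say what it measures. In all 14 symbols the copy number followed the rank of the score, so that the locus without a suffix had the highest. Of the 97 members, 7 had a score below 50% of the highest of their symbol, or 7.22%, against a background of 10.2%.

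The deposited interval of the reference transcript shows how these loci divide their gene. KRT17_copy2 and KRT17_copy3 lay 41 bases apart and covered bases 1 to 800 and 842 to 1302 of the reference, so that they shared 0 bases. KRT17 itself covered 356 to 1420 and lay beside them. In the mouse, Krt16 is followed by 2 genes, Krt17 and Krt42. KRT4_copy2 and KRT4 lay 81 bases apart and covered 1402 to 1773 and 59 to 1404, with 3 bases in common. For these 2 symbols, neighbouring loci thus covered successive stretches of 1 reference transcript.

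Other loci covered the same stretch. KRT6A_copy2 and KRT6A shared 1607 bases of the reference, all of the shorter interval. KRT85_copy2 and KRT85 shared 1373 bases and lay on opposite strands. The 3 loci of KRT38, a hair keratin with no mouse gene in the comparison, shared 513 to 718 bases in each pairing. KRT38_copy2 and KRT38_copy3 reached 82.2% and 56.6% of the score of KRT38.

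**Figure D4:**
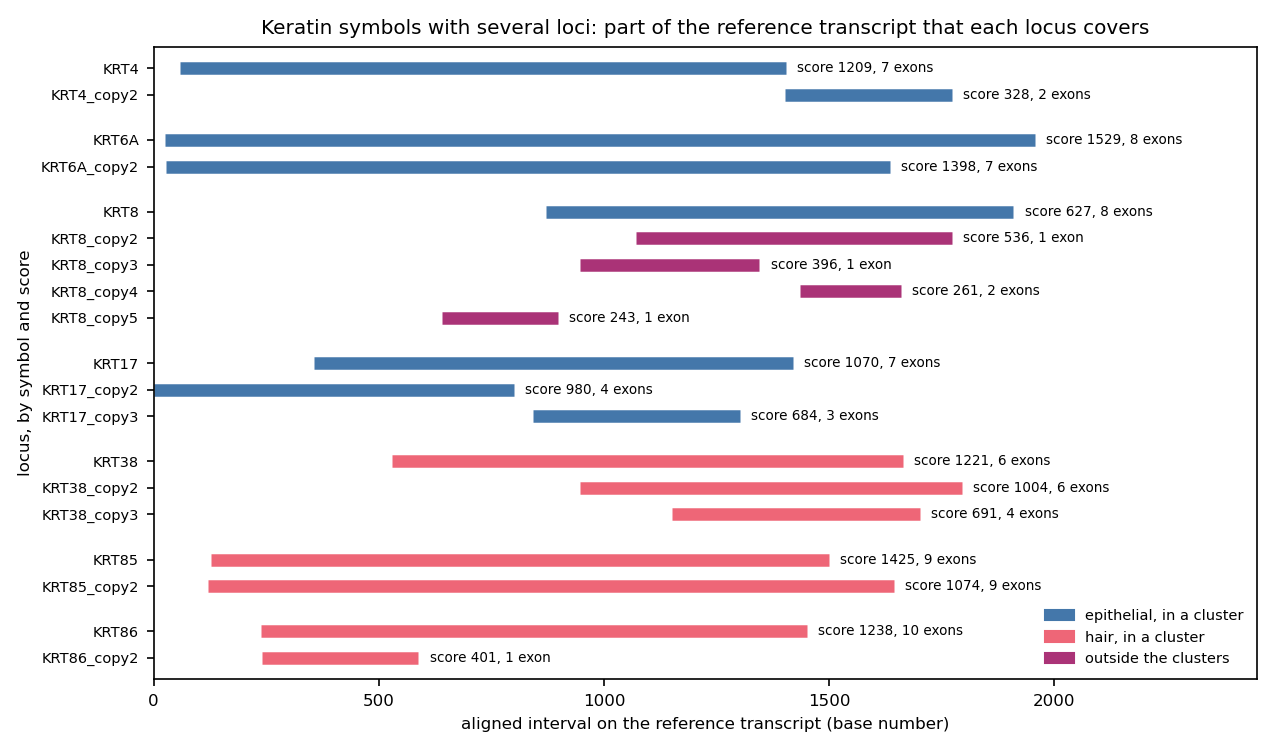
Interval of the reference transcript, in bases, covered by each locus of the 7 keratin symbols with several loci, ordered by score within the symbol. KRT17_copy2 and KRT17_copy3, and KRT4 and KRT4_copy2, cover successive stretches, whereas the loci of KRT6A and of KRT85 cover the same one. Of the 5 KRT8 loci, 4 are not in the clusters. Among these, KRT8_copy4 is on a scaffold annotated only to base 1159.

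KRT8 was the keratin with the most loci and the only one with further loci on scaffolds other than that of its clustered locus. The clustered KRT8 had 8 coding parts, 1068 coding bases and a score of 627, and covered bases 872 to 1909 of the reference. KRT8_copy2 lay on scaffold 26 at 4193858 to 4194619, between POP4 and VSTM2B, with 1 exon of 762 bases. Its score was 536, or 85.5% of that of KRT8, over bases 1071 to 1772. KRT8_copy3 and KRT8_copy5 lay on scaffold 5, at 36496153 to 36496550 and 36496596 to 36496865, 45 bases apart between CLDN3 and ABHD11. With 1 exon each, they covered bases 947 to 1345 and 641 to 898 of the reference and had scores of 396 and 243. KRT8_copy4, with 2 exons and a score of 261, lay on scaffold 9497, where its own end is the last annotated base, 1159. Its place relative to the clusters is unknown. Of its coding sequence, 45.45% aligned to the reference, over bases 1436 to 1660.

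KRT8P41, a locus of the same kind, bears the symbol of a human KRT8 pseudogene. It lay on scaffold 8 at 67610818 to 67611147, between PJA2 and MAN2A1, with 1 exon of 330 bases and a score of 202. Together with KRT8_copy2, KRT8_copy3 and KRT8_copy5 it made up the 4 single-exon keratin loci outside the clusters. No other keratin had such a locus, KRT18 included, which had 1 locus only. In the mouse annotation, 1 gene named after Krt8 is a pseudogene. Pseudogenes under other names could not be counted in this way. The later mole assembly has 0 protein-coding genes in the 3 intervals, with 1 pseudogene between POP4 and VSTM2B and 2 between PJA2 and MAN2A1; their names were not compared.

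KRT8_copy3 and KRT8_copy5 had 63.16% and 38.76% of the score of KRT8. This share is 100% by construction for the best or sole locus of a symbol, KRT8P41 included, and was not compared between clustered and dispersed loci. Per aligned base of the reference transcript, KRT8_copy3, KRT8_copy5 and KRT8_copy2 had 0.993, 0.942 and 0.764 points per base and KRT8_copy4 had 1.16, all above the 0.604 of the clustered KRT8. That value was the lowest of all multi-exon keratins in the clusters, which ran up to 1.48 in KRT17_copy3. KRT8P41 had 0.61 points per base. The clustered KRT8 held parts of 61, 96 and 165 bases and then 170 in place of 126, and so lacked the run of its type.

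Of all 97 members, 29 had a single exon, or 29.9%, against a background of 24.7% of all gene lines. The share was 10% among keratins (6 of 60) and 62.2% among KRTAP loci (23 of 37). Besides the 4 dispersed loci, the single-exon keratins were KRT12 and KRT86_copy2, both inside the clusters. All 6 were models of the exonerate source, which made 7 of the keratin loci, and 0 of the 53 keratin models of the EVM source had a single exon. In the mouse, 0 of 53 keratin genes and 57 of 57 Krtap genes had a single coding part.

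By class, the score per aligned reference base was highest in the inner root sheath keratins of type II, with a median of 1.3 over 4 loci, and in the hair keratins of type I, with 1.23 over 12 loci. Type II hair keratins had a median of 1.17 over 7 multi-exon loci, and type I inner root sheath keratins 1.11 over 3. Epithelial keratins were lower, with medians of 1.01 in type I (14 loci, KRT18 included) and 0.89 in type II (12 loci). The ranges of all classes overlapped: the type I epithelial keratins ran from 0.709 in KRT23 to 1.48 in KRT17_copy3, and the type I hair keratins from 1.04 in KRT39 to 1.37 in KRT31. KRTAP loci had a median of 0.766, against 1.209 over all scored loci of the annotation.

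**Figure D5:**
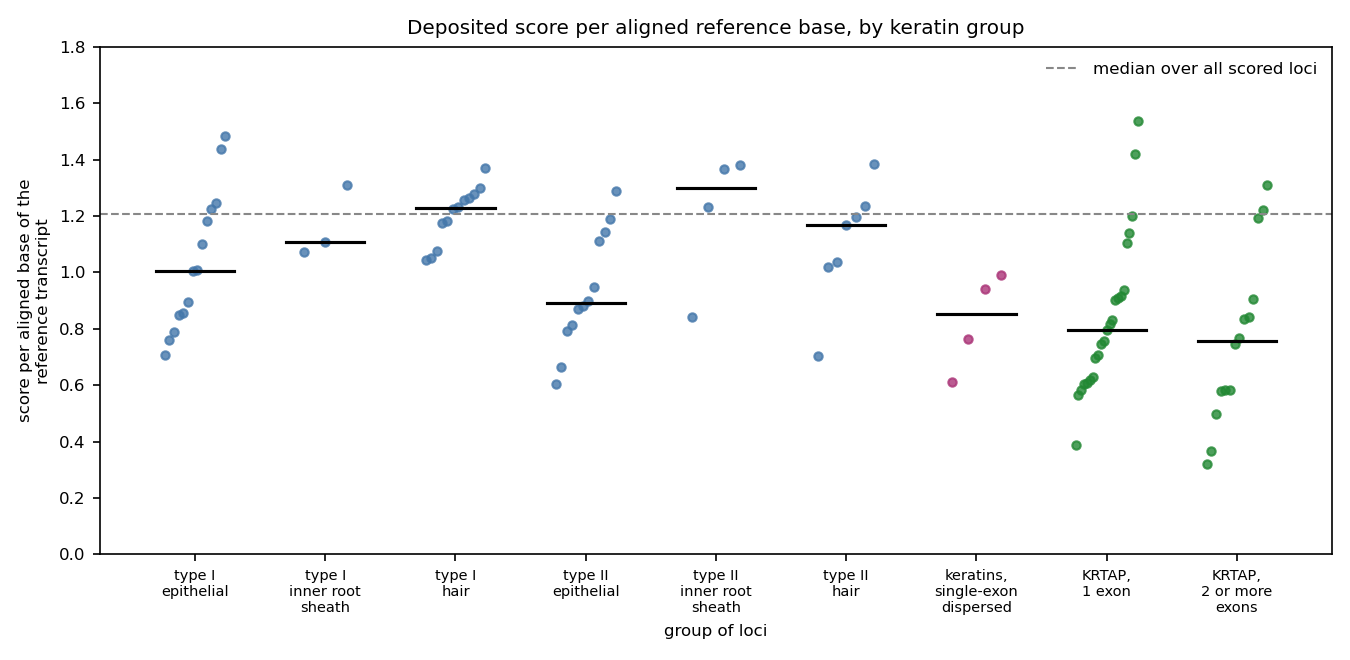
Deposited score per aligned base of the reference transcript for multi-exon keratins in the clusters by type and class (KRT18 counted as type I epithelial), for the 4 dispersed single-exon keratins and for KRTAP loci with 1 exon (23) or more (14). Points are loci, black bars are group medians and the dashed line is the median of 1.209 over all scored loci; the classes overlap, and most KRTAP points lie below the line.

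Keratin-associated proteins are grouped by composition into high-sulfur, ultrahigh-sulfur and high glycine-tyrosine families. Of the 37 KRTAP loci, 34 lay in 4 clusters. The largest held 18 loci on scaffold 4, at 7408659 to 8009067, between TIAM1 (162.2 kb away) and CLDN8 (53.07 kb away), a claudin gene of tight junctions. It held the high glycine-tyrosine families KRTAP6 and KRTAP19 and the high-sulfur families KRTAP11, KRTAP13, KRTAP15, KRTAP24, KRTAP26 and KRTAP27. Its strands were more mixed than in the keratin clusters, with 12 loci on the plus and 6 on the minus strand, and 10 other loci lay inside it, 8 of them with a LOC name. The second cluster was the block of 10 within the type I cluster, with KRTAP2-1 (3 loci), KRTAP3-3 and KRTAP3-1 (2 each), KRTAP1-3, KRTAP16-1 and KRTAP9-9. The remaining ones held 3 loci each: KRTAP10-3 on scaffold 56, 12.23 kb from TSPEAR, and KRTAP13-1 on scaffold 529.

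In these intervals the mole annotation held fewer loci with a KRTAP name than the mouse held Krtap genes. Between SMARCE1 and EIF1 there were 10 KRTAP loci over 846.5 kb in the mole and 23 Krtap genes over 1089 kb in the mouse. Between TIAM1 and CLDN8 there were 18 in the mole and 24 in the mouse. That mole interval held 28 loci of any kind, and 8 of those without a KRTAP name had a LOC name. Whether any of these are KRTAP genes under another name was not tested, so the numbers compare names only. Counted as mole loci against mouse genes, the keratin numbers were closer. There were 29 in the mole and 27 in the mouse between SMARCE1 and EIF1, and 25 and 26 between ATG101 and EIF4B, again by name. The 29 loci included 3 each of KRT17 and KRT38, and the 25 bore 21 symbols. Loci that cover only part of a gene were counted in full, so these numbers are not numbers of mole genes. Between SMARCE1 and EIF1, talOcc3 held 40 loci of any kind, and the later mole assembly 64 protein-coding genes, of which 1 bears a KRTAP name. How many of the others there are KRTAP genes was not tested.

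KRTAP13-1 had the most loci of all members, 8. Of these, 5 lay on scaffold 4 and 3 on scaffold 529, whose last annotated base is 14060. The loci on scaffold 529 had scores of 431 (KRTAP13-1), 358 (KRTAP13-1_copy4) and 139 (KRTAP13-1_copy8). On scaffold 4 the scores were 393 (KRTAP13-1_copy2), 362 (KRTAP13-1_copy3), 247 (KRTAP13-1_copy5), 180 (KRTAP13-1_copy6) and 142 (KRTAP13-1_copy7). KRTAP13-1 and KRTAP13-1_copy2 were built from the same source protein, as were KRTAP13-1_copy4 and KRTAP13-1_copy3, and these 4 loci all covered bases 14 to 526 of the reference. KRTAP13-1_copy8 shared its source protein with none of the 5 loci on scaffold 4. Whether the short scaffold is a second placement of the same genes was not tested. KRTAP19-1 had 4 loci, and KRTAP2-1 and KRTAP10-3 had 3 each.

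KRTAP models were shorter than keratin models and matched their reference over less of their length. Their median coding length was 405 bases, against 1293 bases for keratins and 1011 for all gene lines. The share of the model's coding sequence that aligned to its reference had a median of 83.73% in KRTAP loci and 93.46% in keratins, against 96.57% over all scored loci. It was 9.495% in KRTAP9-9, 17.1% in KRTAP4-4 and 20.06% in KRTAP16-1. Loci with a single exon had a median share of 90.2%, and the 14 with more had 60.99%. Of these 14, 12 had an intron over 4 kb, and the median of their largest introns was 6.942 kb.

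KRTAP16-1 was the most extended, with 13 exons over 166.5 kb, and it enclosed KRTAP9-9 and a model with no symbol. In the mouse Krtap16-1 has a single coding part. A total of 4 models carry the name of the protein from which KRTAP16-1 was built, 2 of them on scaffold 28 and 2 on scaffold 56. Overlaps of any kind, enclosing or partial, touched 11 of the 97 members, or 11.3%, against a background of 6.38% of all gene lines. Of the 11, 9 were KRTAP loci. The others were KRT86 and KRT7.

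Outside the clusters lay 9 members, 6 keratins and 3 KRTAP loci. KRT75, with 8 parts and a score of 1742, lay on scaffold 945, where its own end is the last annotated base, 8597. The length of that scaffold was not used here. Mouse Krt75 lies between Krt90 and Krt6b in the type II cluster. KRTAP4-4 on scaffold 9338, KRTAP4-1 on scaffold 10287 and KRTAP5-4 on scaffold 307, all of ultrahigh-sulfur families, lay alone. Members on scaffolds annotated to less than 20000 bases were 8 of 97, or 8.25%, against a background of 9.52%. Of these 8, 6 were KRTAP loci.

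Other genes of the same systems were looked up in the same annotation. All 15 other intermediate filament genes on the list had a locus, and of these only VIM, the vimentin of mesenchymal cells, had 2. The better-scoring VIM locus had a single exon of 1410 bases on scaffold 14 and a score of 2122. VIM_copy2 on scaffold 27 had 8 exons and 57.5% of that score, the reverse of KRT8, whose best-scoring locus was the multi-exon one. Of 24 symbols for desmosomal, linker and cornified envelope proteins 20 had a locus, and TCHH, FLG and loricrin (searched under LOR and LORICRIN) had none under their names. All 7 regulators of hair keratins on the list had 1 locus, among them HOXC13, a homeobox gene required for hair shaft keratin expression in mice, which lay 649.5 kb beyond the type II cluster on the same scaffold.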

How the data were processed

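RNA of gonads was sequenced in 35 libraries. STAR 2.6.1d and the mouse build mm9 appear in the submitters' processing notes without a stated role. The mole annotation on talOcc3 holds no library's values (0 columns of per-sample values were left aside), so no expression was tested and no p-value is given. Per the file headers and columns, each locus has positions (1-based, as deposited), coding parts, a source label (EVM, exonerate or ALN) and a score. The authors deposited this score with the reference interval and the highest score of the symbol; the sources used here do not describe how models or scores were made.

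In Python 3.11.15, gene lines were matched to their transcripts and coding parts; figures used matplotlib 3.10.9. Clusters, part lengths, order, intervals and scores were described, with alternatives for the distance within clusters, coding length, scaffold, score, source and strand. The steps were tested on simulated data. Mouse genes were those of GENCODE M21 (GRCm38), by the transcript with the longest coding sequence. The later mole assembly gave names and neighbours only; its sequence boundaries were inferred from where start positions fall back. Genes were named by their place in a cluster, the 3 loci on each side, several or no loci, dispersed single-exon loci by score, and KRTAP families by count. Mouse genes, models with unusual part lengths or introns, other members outside the clusters and the flanks of dispersed loci were named after their values were seen. Members and lists were chosen with earlier results of these data known.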

Additional observations from a re-analysis of the deposited data

How the results depend on the processing

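Of 61 alternatives run over these counts, medians and orders, 57 stayed within the limits set for them (a count within 1.5 times its value) and 37 gave the same value. The 4 that moved were these. With exonerate models left out, single-exon members numbered 8 and not 29, single-exon keratins 0 and not 6, and dispersed single-exon keratin loci 0 and not 4; all 6 single-exon keratins are exonerate models. With loci of under 300 coding bases left out, the median score of the dispersed single-exon keratins was 85.49% of the highest of their symbol and not 74.32%, since KRT8_copy5 is then absent; this share is 100% by construction for KRT8P41, the sole locus of its symbol. The type I cluster kept 28 or 29 keratin loci and the type II cluster 22 to 24 under all alternatives run on them. For order, the limit was set on the number of pairs kept and not on the share kept. It was therefore met where 35 of 37 pairs were kept against the mouse, with loci under 50% of the highest score left out. Order by the best-scoring locus of each symbol was added after seeing the data. Leaving out low-confidence loci removed 0 members. Those alternatives could not change a value, yet they are counted in the 57 and the 37. The same holds for the median share of the highest score in clustered multi-exon keratins. It stayed at 100%, the value that the best locus of each symbol has by construction. No paired analysis was possible because no column of the annotation belongs to a library. The effect of depth could not be assessed, since no read count was analysed.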
